A study of Mus musculus with 20 samples.

Results

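The Hist1 cluster of mouse chromosome 13 is the largest array of histone genes in the genome, and its peaks of acetylated histone H3 lysine 14 (H3K14ac), of the H3K9 methyltransferase Setdb1 and of its corepressor partner Kap1 were compared between young and old liver. Its members were the protein-coding genes of the GENCODE basic M21 annotation on that chromosome whose symbol begins with Hist1h. They numbered 54 of 21938 protein-coding genes, and of 838 on chromosome 13. A member was counted as having a peak when at least 1 bp of a peak lay in its gene body or within 1 kb on either side. Chromatin came from snap-frozen livers of wild-type male C57BL/6 mice aged 3 months (young) or 21 months (old), with no other treatment or allele in any group. H3K14ac and Setdb1 were each mapped by ChIP-Seq (sequencing of DNA that an antibody recovers with chromatin) in 3 livers per age, and Kap1 in 2 livers per age. The livers of an age were merged before peaks were called, so that each protein and age has 1 list of peaks, 6 lists in all. A list gives positions with no height, the depth behind a peak is unknown, no spread between livers can be stated, and no difference between the ages could be tested.

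Replication-dependent histone genes supply the linker histone H1 and the core histones H2A, H2B, H3 and H4 that package new DNA when a cell divides. They are short genes, mostly without introns, their mRNAs end in a stem-loop in place of a poly(A) tail, and near-identical copies encode the same protein. Many stand in head-to-head pairs that share a promoter region. H3K14ac is in general found at active promoters and enhancers, whereas Setdb1 is recruited through Kap1 by zinc finger proteins, best known at retroelements and zinc finger genes, and methylates H3K9. Most hepatocytes of adult liver are not dividing, and bulk liver also holds Kupffer, endothelial, stellate and other cells, so a peak cannot be assigned to a cell type here.

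The 54 genes comprised 6 linker H1 genes, 13 H2A, 15 H2B, 9 H3 and 11 H4 genes. Their median length was 532 bp (range 312 to 37455 bp), and 41 were under 1 kb, against a median of 17425 bp over all protein-coding genes. The cluster spanned 2.22 Mb with 1 kb added at each end (chr13:21714763-23935851, GRCm38, the build to which the authors aligned). Within it the histone genes stood in 4 blocks, split where neighbours were more than 100 kb apart. Block 1 held 18 members in 124 kb, block 2 held 5 in 10.5 kb, block 3 held 29 in 235 kb, and block 4 held Hist1h2ba and Hist1h2aa, a testis pair, in 3.08 kb. The longest of the 3 stretches between them was 1485 kb and held 36 annotated genes of the vomeronasal type 1 receptor family (Vmn1r). The map of the cluster shows that most of its peaks lay in that stretch and not at the histone genes. The stretch is also most of the cluster's length. Per Mb it was the densest part for Kap1 alone, and old H3K14ac had 12.1 peaks there against 38.2 in block 3.

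**Figure D1:**
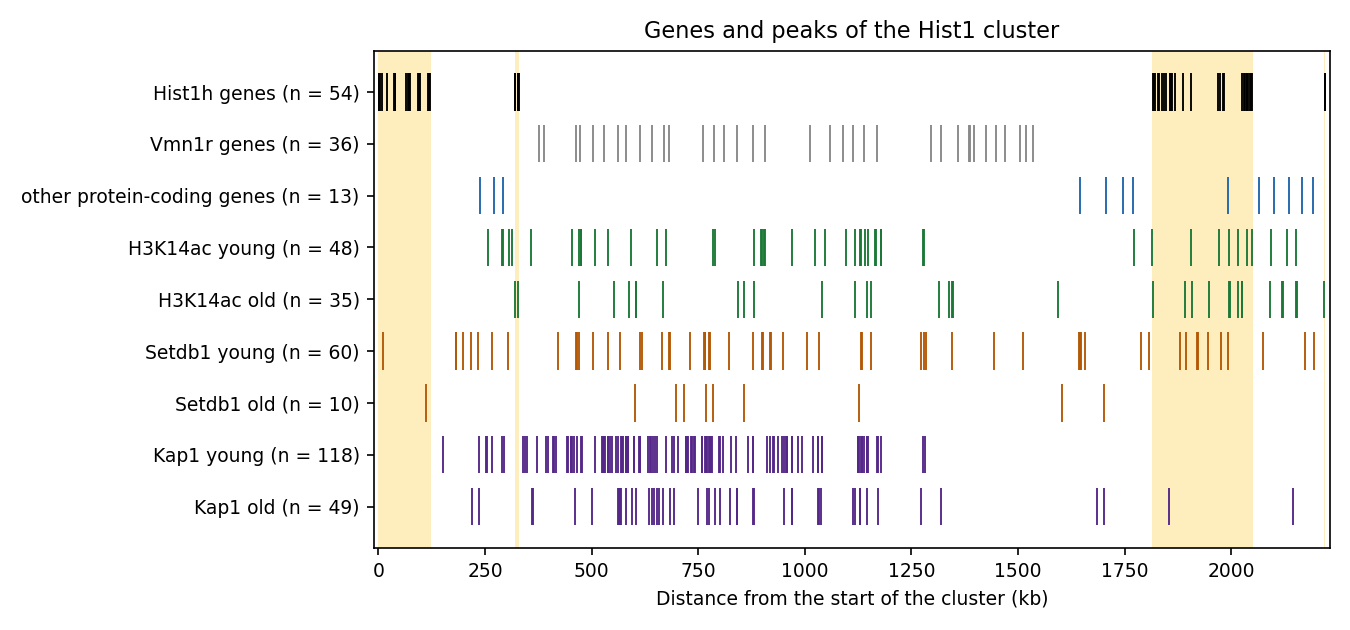
Positions of genes and peak midpoints along the Hist1 cluster, in kb from its start; each tick is 1 gene or 1 peak, shaded areas are the histone blocks, and n is the number per row. Kap1 peaks crowd the Vmn1r stretch and block 1, at the left edge, has no H3K14ac peak.

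In the whole series the lists held 19350 young and 20463 old H3K14ac peaks, 50583 and 13877 Setdb1 peaks, and 48915 and 22141 Kap1 peaks. Most records had the same width, which was 500 bp in the H3K14ac lists, 200 bp in those of Setdb1 and 150 bp in those of Kap1, so a width says little about the extent of a mark. Of 10 hepatocyte marker genes, 6 had an H3K14ac peak at each age, against 28.4% (young) and 36.3% (old) of all protein-coding genes, while Alb, Fgb and Serpina1a had none at either age. Young and old H3K14ac peaks were at 1 and 2 of 4 endothelial markers, 2 and 1 of 4 stellate cell markers, 0 and 1 of 4 cholangiocyte markers and 0 and 2 of 4 lymphocyte markers. They were at 0 of 4 Kupffer cell markers and 0 of 6 markers of dividing cells at both ages, the latter being Mki67, Top2a, Ccnb1, Cdk1, Pcna and Mcm2. Each list has its own size, and old against young counts are therefore given beside the ratio of the whole lists.

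H3K14ac was found at few histone genes at either age. In young liver 6 of 54 members had an H3K14ac peak, or 11.1% (95% exact Clopper-Pearson interval 4.19% to 22.6%), against 28.4% of all protein-coding genes. In old liver 8 members had a peak, or 14.8% (6.62% to 27.1%), against 36.3% of all genes. The intervals cover counting error only and treat genes as separate, although neighbours share peaks. The 6 young members stood on 4 distinct peaks and the 8 old members on 7. With a window that leaves out the rest of the gene, 1 kb each side of any annotated start site, 4 members (7.41%, 2.06% to 17.9%) had a young peak against 18.3% of all genes, and 7 (13%, 5.37% to 24.9%) had an old peak against 26.6%. Genes with several start sites have more than 1 such window. The share of members was thus below that of all genes in both windows and at both ages.

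That order turned round when short genes were compared with short genes, a comparison added after these values had been seen. Of the 41 members under 1 kb, 3 had a young H3K14ac peak (7.32%, 1.54% to 19.9%), against 4.46% of all 717 protein-coding genes under 1 kb. For old liver 5 of the 41 had a peak (12.2%, 4.08% to 26.2%), against 5.16%. These counts are of genes and not of separate peaks. Hist1h2ab and Hist1h3b shared a young peak, and Hist1h4i, Hist1h2ag and Hist1h2bj shared an old one, so the reversal rests in part on shared peaks. At start sites of the short genes the values were 7.32% against 3.91% in young and 9.76% against 4.88% in old liver. Setdb1 peaks at start sites of short genes were present at 3.21% (young) and 0.558% (old), and those of Kap1 at 5.02% and 1.53%, against 0 of the 41 members for each. Each short-gene value for H3K14ac lay inside the wide interval of the members, so the histone genes are neither shown to be poor nor to be rich in H3K14ac peaks for genes of their length.

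In the gene body alone 5 members had a young H3K14ac peak against 25.8% of all genes, and 4 had an old one against 33.7%. Hist1h2be and Hist1h2bc had a young Setdb1 peak, against 34.4%, and no member had an old Setdb1 peak (14.1% of all genes) or a Kap1 peak (27.0% in young and 15.0% in old liver). With flanks widened to 5 kb, 11 members had a young H3K14ac peak against 32.5%, and 14 an old one against 40.4%. For Setdb1 it was then 4 members in young liver against 43.7% and 0 in old against 17.8%, and for Kap1 0 in young against 34.4% and 2 in old against 19.3%.

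**Figure D2:**
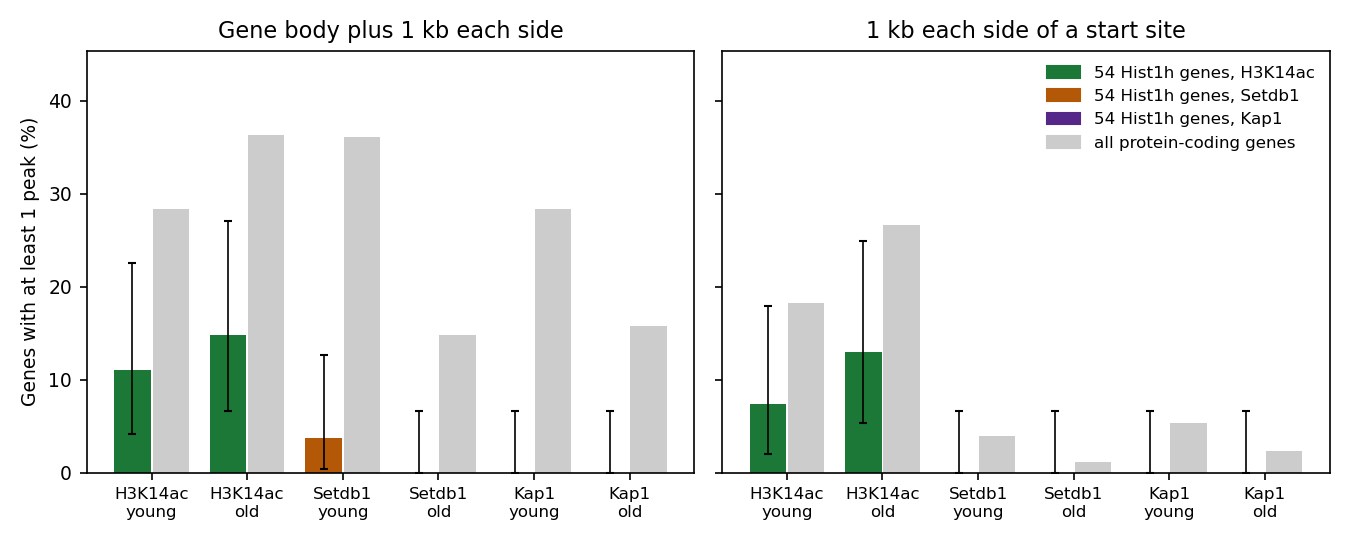
Share of genes with at least 1 peak (%) in each list, for the gene body plus 1 kb each side (left) and for 1 kb each side of a start site (right); coloured bars are the 54 Hist1h genes with 95% exact Clopper-Pearson intervals, grey bars are all protein-coding genes. The coloured H3K14ac bars (11.1% and 14.8% on the left) stand below the grey ones, and 4 of the 6 lists have no coloured bar on the right.

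The linker histone family had H3K14ac peaks at either age at 3 of its 6 genes, Hist1h1e, Hist1h1c and Hist1h1a, a share near the 46.2% of all protein-coding genes with a young or an old peak. H1 binds the DNA that enters and leaves the nucleosome. Hist1h1e, which encodes H1.4, was among the members with peaks in both age lists. The young peak (chr13:23620617-23621116) was centred 1692 bp downstream of its start site, over the far end of its single exon. The old peak (chr13:23621704-23622203) was centred 605 bp downstream and overlapped the coding part. A gap of 587 bp separated the young peak from the old, so that no base was in both. The same pair of peaks falls in the window of Hist1h2be, whose annotated transcripts begin inside the Hist1h1e exon, and the peaks cannot be assigned to either gene.

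Hist1h1c, which encodes H1.2, had 2 peaks in the old list and none in the young. The first (chr13:23738935-23739434) was centred 376 bp downstream of the start site and covered coding sequence. The second (chr13:23739979-23740478) was centred 1420 bp downstream, at the end of the exon. Hist1h1a, which encodes H1.1, was the reverse case, with a young peak (chr13:23763813-23764312) centred 396 bp downstream of the start site over coding sequence and no old peak. Hist1h1b, Hist1h1d and the testis gene Hist1h1t had no peak of any list.

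The promoters of Hist1h1e, with peaks at both ages, of Hist1h1c, with old peaks, and of Hist1h1b, with none, are shown to compare what lies before the start site. Each is the 250 bases before the RefSeq start site on GRCm38, read 5′ to 3′ on the strand of the gene. Capitals mark 3 motifs on either strand. The first is TATAAA, which binds the general transcription machinery. The second is CCAAT, printed as its reverse complement where it lies on the other strand. The third is AAACACA, known as the H1 box.
Hist1h1e (chr13:23622559-23622808, minus strand): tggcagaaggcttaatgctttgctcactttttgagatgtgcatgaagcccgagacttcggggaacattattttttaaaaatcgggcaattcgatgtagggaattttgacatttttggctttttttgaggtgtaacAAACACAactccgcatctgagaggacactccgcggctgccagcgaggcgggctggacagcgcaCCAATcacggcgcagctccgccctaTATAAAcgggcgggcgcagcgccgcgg
Hist1h1c (chr13:23738557-23738806, plus strand): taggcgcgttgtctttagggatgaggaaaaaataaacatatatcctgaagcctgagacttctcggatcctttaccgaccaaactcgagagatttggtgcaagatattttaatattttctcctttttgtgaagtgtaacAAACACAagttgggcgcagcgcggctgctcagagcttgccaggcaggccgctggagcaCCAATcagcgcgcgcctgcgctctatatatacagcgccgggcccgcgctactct
Hist1h1b (chr13:21780626-21780875, minus strand): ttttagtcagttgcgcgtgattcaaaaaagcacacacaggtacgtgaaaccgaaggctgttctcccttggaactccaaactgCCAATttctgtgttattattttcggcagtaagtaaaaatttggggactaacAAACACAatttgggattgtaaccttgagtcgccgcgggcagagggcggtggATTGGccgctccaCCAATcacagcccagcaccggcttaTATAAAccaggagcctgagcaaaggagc
Hist1h1e carried AAACACA beginning 115 bases, CCAAT 52 bases and TATAAA 27 bases before its start site. Hist1h1b, without a peak, had the same order at 117, 53 and 28 bases, with 2 further CCAAT matches. Hist1h1c had AAACACA at 112 and CCAAT at 54 bases and no exact TATAAA. Only exact matches were sought, and its printed sequence holds tatatata between the CCAAT and the start site. In all 6 H1 genes a CCAAT on the strand of the gene began 51 to 65 bases before the start, and in all but Hist1h1a an AAACACA began 112 to 122 bases before it. CCAAT was thus shared by genes with and without a peak. The exact TATAAA was missing from Hist1h1c, with a peak, and from Hist1h1t, without one, and AAACACA from Hist1h1a, with a peak.

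Of the 13 H2A genes, 3 had an H3K14ac peak at either age (23.1%, 5.04% to 53.8%), against 46.2% of all genes, with no allowance for gene length. They were Hist1h2ab in young and Hist1h2ah and Hist1h2ag in old liver. None had peaks at both ages. With 1 H2A gene in the young list, this count cannot be set against other genes. Over all genes, 65.0% of those with a young peak also had an old one. The young peak at Hist1h2ab (chr13:23750937-23751436) was centred 60 bp from the start site, the closest of any peak in the 6 lists to a histone gene start. It also reached the window of the neighbouring Hist1h3b, 1081 bp upstream of that start, and Hist1h3b was the single H3 gene of 9 with a peak. The old peak at Hist1h2ah (chr13:22033881-22034380) lay in the flank beyond the gene, 1438 bp from its start site.

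The remaining old H2A peak (chr13:22042251-22042750) touched the windows of 3 genes of block 2. It was centred 444 bp downstream of the start of Hist1h2ag, over coding sequence, 714 bp upstream of the start of the H2B gene Hist1h2bj and 1138 bp upstream of the start of the H4 gene Hist1h4i. Hist1h2ag and Hist1h2bj are a head-to-head pair, and the bases between their RefSeq start sites, chosen after the values were seen, are shown because 1 peak counts for both genes.
Hist1h2ag and Hist1h2bj (chr13:22042950-22043197, plus strand): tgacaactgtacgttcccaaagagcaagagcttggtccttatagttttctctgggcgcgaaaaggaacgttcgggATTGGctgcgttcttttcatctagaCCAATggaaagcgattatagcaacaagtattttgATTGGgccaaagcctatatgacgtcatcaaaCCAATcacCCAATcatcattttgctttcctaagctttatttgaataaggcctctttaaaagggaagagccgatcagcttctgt
The stretch of 248 bases held 5 CCAAT matches, in capitals, in both directions, and no TATAAA or ATTTGCAT.

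Of the 15 H2B genes, 3 had an H3K14ac peak at either age, namely Hist1h2be, Hist1h2bc and Hist1h2bj. The share of all genes was 46.2%, with no allowance for gene length, and lay inside the H2B interval (4.33% to 48.1%). Hist1h2be stands apart by its annotation. Its GENCODE transcripts span 37455 bp with a start far from the coding exon, and its window is accordingly wide. Its 2 transcripts begin at chr13:23621094 and chr13:23621124, and distances are from the nearer of these. The young peak shared with Hist1h1e was centred 228 bp downstream of the first, over the noncoding first exon, and the shared old peak was 829 bp upstream of the second. A further old peak (chr13:23605760-23606259) lay in the intron, 15085 bp from the start site. RefSeq also gives a start at the coding exon, from which these 3 peaks were 34896 bp, 35983 bp and 20039 bp away. Hist1h2bc had a young peak (chr13:23685281-23685780) in its intron, 1331 bp from the start site, and no old peak.

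Of the 11 H4 genes, 2 had an H3K14ac peak, Hist1h4i and Hist1h4h, both in the old list. The peak at Hist1h4h (chr13:23530463-23530962) was centred 338 bp upstream of the start site. The same peak lay beside the tRNA gene n-TMcat9 (chr13:23530348-23530419), so it cannot be assigned to the histone gene alone. The core histone genes together had a peak at either age at 9 of 48 genes (18.8%, 8.95% to 32.6%), against 3 of 6 (50%, 11.8% to 88.2%) for H1 and 46.2% of all genes. The H1 share was thus close to that of all genes. The core share was below it, a comparison that does not allow for gene length. Among genes under 1 kb the order of members, H1 genes included, and all genes was the reverse at each age, as given above. That order was not computed for the core genes alone. The intervals of H1 and the core genes overlap, and the families share peaks at Hist1h1e and Hist1h2be.

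**Figure D3:**
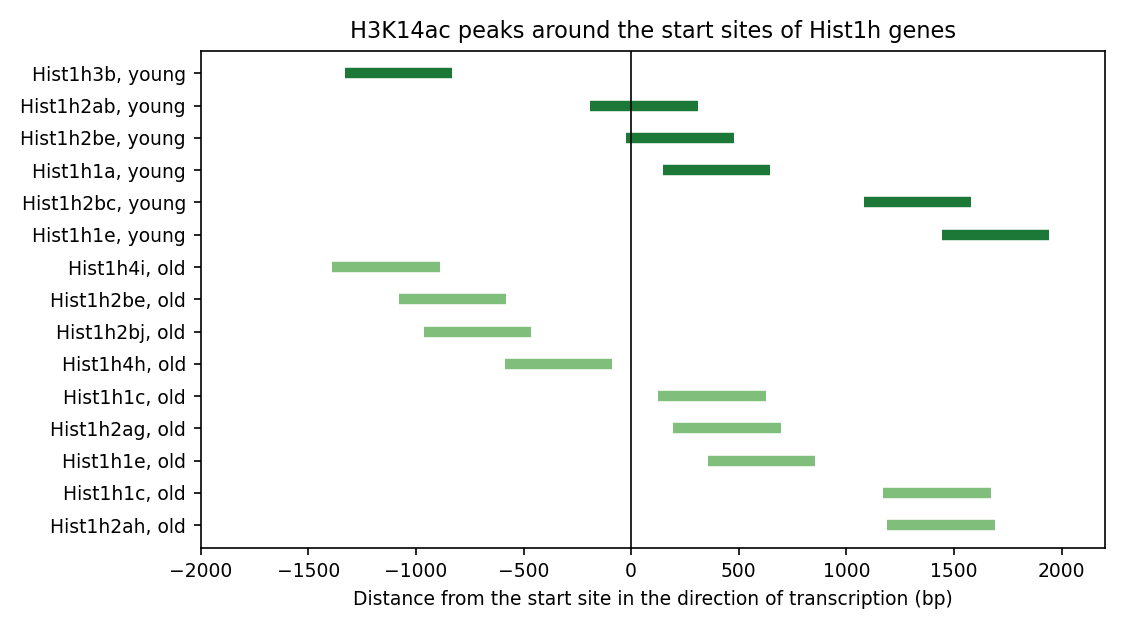
H3K14ac peaks around the start sites of Hist1h genes; bars span each 500 bp peak, in bp from the start site in the direction of transcription, dark for young and light for old, and the intron peak of Hist1h2be, 15085 bp away, is left out. A peak shared by neighbouring genes has a bar for each, and the young peak of Hist1h2ab is centred nearest to a start site, at 60 bp.

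The remaining 42 members had no peak of any list. They were Hist1h1b, Hist1h1d and Hist1h1t of the H1 genes. Of the H2A genes they were Hist1h2aa, Hist1h2ac, Hist1h2ad, Hist1h2ae, Hist1h2af, Hist1h2ai, Hist1h2ak, Hist1h2an, Hist1h2ao and Hist1h2ap. Of the H2B genes they were Hist1h2ba, Hist1h2bb, Hist1h2bf, Hist1h2bg, Hist1h2bh, Hist1h2bk, Hist1h2bl, Hist1h2bm, Hist1h2bn, Hist1h2bp, Hist1h2bq and Hist1h2br. The H3 genes without a peak were Hist1h3a, Hist1h3c, Hist1h3d, Hist1h3e, Hist1h3f, Hist1h3g, Hist1h3h and Hist1h3i, and the H4 genes were Hist1h4a, Hist1h4b, Hist1h4c, Hist1h4d, Hist1h4f, Hist1h4j, Hist1h4k, Hist1h4m and Hist1h4n. All 18 genes of block 1 and both genes of block 4 were among them.

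**Figure D4:**
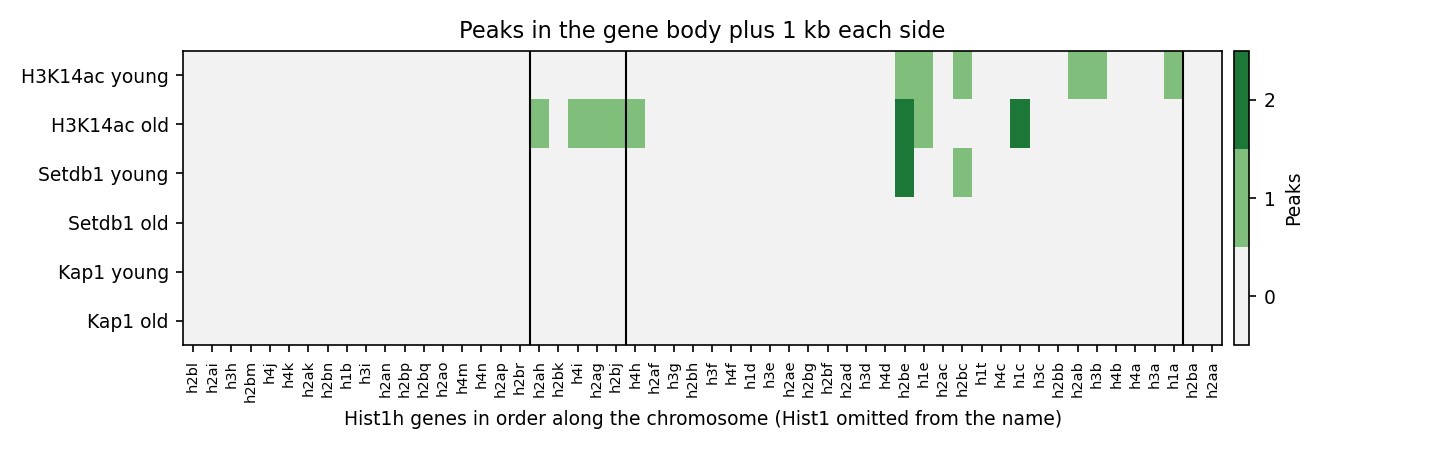
Number of peaks in the gene body plus 1 kb each side for each Hist1h gene (columns, in order along the chromosome, black lines between blocks) and each list (rows); pale is 0, middle green 1 and dark green 2. The young and old H3K14ac rows share 2 genes, Hist1h2be and Hist1h1e, and the rows of old Setdb1 and of Kap1 at both ages are empty.

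Between the ages, the histone genes with an H3K14ac peak were mostly different. Hist1h1e and Hist1h2be had a peak in both lists, 4 members had one in young liver and not in old, and 6 in old and not in young. None of the 4 distinct young peaks in member windows shared a base with an old peak. By the paper's counts, most peaks of the whole H3K14ac lists were also not shared between the ages. Over all protein-coding genes 65.0% of those with a young peak also had an old one, and 51.0% of those with an old peak had a young one. These gene shares make no allowance for gene length. Elsewhere in the cluster 5 pairs of a young and an old H3K14ac peak shared at least 208 bp, at Vmn1r191 and Vmn1r192, at the iron homeostasis gene Hfe (2 pairs), at the phosphate and urate transporter gene Slc17a1, and outside genes. With 1 list per age, a change with age at any histone gene cannot be told apart from variation between pooled livers or from a signal that crosses the peak threshold in 1 list.

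Setdb1 was found at 2 histone genes, both in young liver and both in introns. The members were Hist1h2be and Hist1h2bc, or 3.70% of 54 (0.452% to 12.7%), against 36.1% of all protein-coding genes. Hist1h2be had 2 Setdb1 peaks, 26378 bp and 12831 bp from its GENCODE start site, and 8746 bp and 22293 bp from the RefSeq start at its coding exon. Hist1h2bc had 1, at 6640 bp. These 2 genes have the long introns that most members lack. At the start sites 0 of 54 members had a Setdb1 peak in young liver, against 3.91% of all genes, and 0 in old liver, against 1.15%. In old liver 0 of 54 members had a peak in the full window, which allows up to 6.60%, against 14.8% of all genes. Among genes under 1 kb, 3.77% had a young and 0.697% an old Setdb1 peak, and 0 of 41 short members had either, which allows up to 8.60%.

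The Setdb1 peaks are printed because they are the sole sites of a repressor in any member window, together with the promoter that RefSeq places at the coding exon of Hist1h2be, from which the first 2 peaks lie upstream. Peaks are on the plus strand of GRCm38 and capitals again mark the motifs, here CCAAT and the octamer ATTTGCAT.
Hist1h2be intron (chr13:23594617-23594816): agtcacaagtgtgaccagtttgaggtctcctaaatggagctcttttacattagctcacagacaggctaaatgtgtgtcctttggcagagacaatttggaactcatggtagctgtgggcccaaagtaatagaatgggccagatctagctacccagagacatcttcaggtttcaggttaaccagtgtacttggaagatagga
Hist1h2be intron (chr13:23608164-23608363): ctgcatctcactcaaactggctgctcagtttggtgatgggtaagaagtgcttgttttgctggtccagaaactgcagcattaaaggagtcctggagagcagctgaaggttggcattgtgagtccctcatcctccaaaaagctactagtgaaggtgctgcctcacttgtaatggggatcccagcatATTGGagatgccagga
Hist1h2bc intron (chr13:23690740-23690939): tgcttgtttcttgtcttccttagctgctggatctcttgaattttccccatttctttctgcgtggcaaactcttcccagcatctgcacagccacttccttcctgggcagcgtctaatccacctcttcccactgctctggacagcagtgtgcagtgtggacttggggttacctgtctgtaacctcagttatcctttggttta
Hist1h2be promoter (chr13:23585971-23586220, minus strand): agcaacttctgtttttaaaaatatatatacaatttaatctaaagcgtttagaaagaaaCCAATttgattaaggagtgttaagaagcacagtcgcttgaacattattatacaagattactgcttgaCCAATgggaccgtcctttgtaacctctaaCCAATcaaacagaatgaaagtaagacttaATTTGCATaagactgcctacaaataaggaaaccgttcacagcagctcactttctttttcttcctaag
None of the 3 peaks contained a 50-base window with a second copy in the genome, and the GC content was 45% in the first and 49.5% in the other 2. The promoter was poorer in GC (33.6%) and held an octamer beginning 67 bases before the start site and CCAAT beginning 96, 125 and 192 bases before it.

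Kap1 was found at no histone gene. In both the young and the old list 0 of 54 members had a peak, which allows up to 6.60%, against 28.4% of all genes in young and 15.8% in old liver. At start sites the shares over all genes were 5.32% and 2.30%, and among genes under 1 kb, with flanks, 6.83% and 2.51%. At 0 of 41 the short members allow up to 8.60%, which is above both of the last values. The Kap1 peak nearest to a histone start site lay at a distance of 9709 bp in the young list. In the old list it lay at 3109 bp, beside Hist1h2ae. The Setdb1 peak nearest to such a site lay 4437 bp from the start of Hist1h2bm at the young age and 6034 bp from that of Hist1h4n at the old age. Of the H3K14ac peaks in member windows, none shared a base with a Setdb1 or Kap1 peak of the same age.

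The cluster as a whole held more peaks per Mb than the genome in 5 of the 6 lists, all but old Setdb1, and most of its peaks lay off the histone genes. H3K14ac had 48 young peaks in the cluster, or 21.6 per Mb (95% exact Poisson interval 15.9 to 28.7), against 7.10 per Mb over the genome. In old liver it had 35, or 15.8 per Mb (11 to 21.9), against 7.51. The histone blocks, 373 kb together, held 6 young peaks (16.1 per Mb, 5.91 to 35.0) and 11 old ones (29.5 per Mb, 14.7 to 52.8). Per base the blocks were thus denser in old H3K14ac peaks than the genome, although few members had a peak. Within the blocks the ratio of old to young H3K14ac peaks was 1.83, in the whole cluster 0.729, and in the whole lists 1.06. The old block peaks outside member windows lay at Hfe, which stands in block 3, and at Gm22452 and Gm11338, which are not annotated as protein-coding.

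Setdb1 had 60 young peaks in the cluster (27 per Mb, 20.6 to 34.8) against 18.6 per Mb over the genome, and 10 old peaks (4.50 per Mb, 2.16 to 8.28) against 5.09. Its ratio of old to young was 0.167 in the cluster and 0.274 in the whole lists. In the histone blocks lay 8 young Setdb1 peaks (21.5 per Mb, 9.27 to 42.3) and 1 old one (2.68 per Mb, 0.0679 to 14.9), and both intervals include the genome value. Per base the blocks were thus not shown to be poor in Setdb1 peaks, while 2 of 54 members had one in their window in young liver and 0 in old. Kap1 had 118 young peaks (53.1 per Mb, 44.0 to 63.6) against 17.9 per Mb over the genome, and 49 old peaks (22.1 per Mb, 16.3 to 29.2) against 8.12, a ratio of 0.415 in the cluster and 0.453 in the whole lists. Of these, 0 young and 1 old Kap1 peak lay in the blocks, whereas 111 young and 45 old ones had their midpoint in the Vmn1r stretch. In young liver the blocks would allow up to 9.90 Kap1 peaks per Mb at a count of 0, which is below the 17.9 per Mb of the genome. The lack was not confined to the blocks, as the 167 kb stretch between blocks 3 and 4 also held 0. The last young Kap1 peak of the cluster ended at chr13:22997480, ahead of block 3, which is most of the block length. The interval does not allow for such clumping of peaks. In old liver the 1 peak gave 2.68 per Mb (0.0679 to 14.9), an interval that includes the 8.12 per Mb of the genome.

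Most peaks of the cluster, in each of the 6 lists, had their midpoint in the 1485 kb stretch with the Vmn1r genes. That stretch is also most of the 2.22 Mb of the cluster. Per Mb it was the densest of the blocks and stretches for Kap1 alone, with 74.7 young and 30.3 old peaks. Young H3K14ac had 22.9 peaks per Mb there against 25.5 in block 3, and old H3K14ac 12.1 against 38.2. Young Setdb1 had 28.3 against 29.7 in block 3, and old Setdb1 6.06 against 0 in block 3 and 8.08 (1 peak) in block 1. Block 3 was not the densest part in young liver. The stretch between blocks 1 and 2, without Hist1h genes, had 25.6 young H3K14ac and 35.8 young Setdb1 peaks per Mb, and 5.11 and 0 in old liver. Of 35 Vmn1r gene names in the cluster, 18 had a young and 12 an old Kap1 peak, 9 a young and 6 an old H3K14ac peak, and 10 a young and 1 an old Setdb1 peak. For Kap1 these were 51.4% and 34.3%, above the 28.4% and 15.8% of all genes and the 30.1% and 20.8% of 173 Vmn1r genes elsewhere. For H3K14ac they were 25.7% and 17.1%, below the 28.4% and 36.3% of all genes and above the 9.25% and 7.51% of the other Vmn1r genes. For Setdb1 they were 28.6% and 2.86%, below the 36.1% and 14.8% of all genes, with 26.6% and 5.78% at the other Vmn1r genes. Within 1 kb of a start site the young order turned, with Setdb1 at 14.3% of the 35 against 3.91% of all genes and H3K14ac at 20% against 18.3%. In old liver these shares were 0% against 1.15% for Setdb1 and 14.3% against 26.6% for H3K14ac. Vmn1r191 had peaks in 5 of the 6 lists, and Vmn1r192, Vmn1r193, Vmn1r200 and Vmn1r202 in 4. Vmn1r195, Vmn1r199, Vmn1r204, Vmn1r205 and Vmn1r211 had peaks in 3, as did the zinc finger gene Zfp184, Hfe and Slc17a1. The widest Kap1 peak of the cluster, 517 bp in young liver, lay at Vmn1r212. In the cluster 7 of 48 young H3K14ac peaks (14.6%, 6.07% to 27.8%) overlapped a Kap1 peak, against 12.1% of the whole young list. In old liver it was 1 of 35 (2.86%, 0.0723% to 14.9%), against 6.65%. All 8 of these H3K14ac peaks lay between the second and the third block.

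The histone genes share sequence with each other, and the authors kept only reads that aligned to 1 place. Over the members' bodies a median of 45.8% of all 50-base windows had an exact second copy in the genome. The family medians were 1.18% for H1, 36.7% for H4, 45.8% for H2B, 51.3% for H3 and 69.9% for H2A. With the 1 kb flanks included the median fell to 16.2%, and it was 8.05% for the members with an H3K14ac peak and 16.7% for those without. In 6 members, Hist1h2bq, Hist1h2ao, Hist1h4m, Hist1h4n, Hist1h2ap and Hist1h2br, at least 88.7% of the windows with flanks were copies, and none of the 6 had a peak. In the other 48 the highest share was 42.1%. Part of the windows of Hist1h4n (88.7%) and Hist1h4m (94.3%) was thus unique at this length. The length of the reads is not given in the sources used here, and the part of copied sequence in the lack of peaks was not tested.

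**Figure D5:**
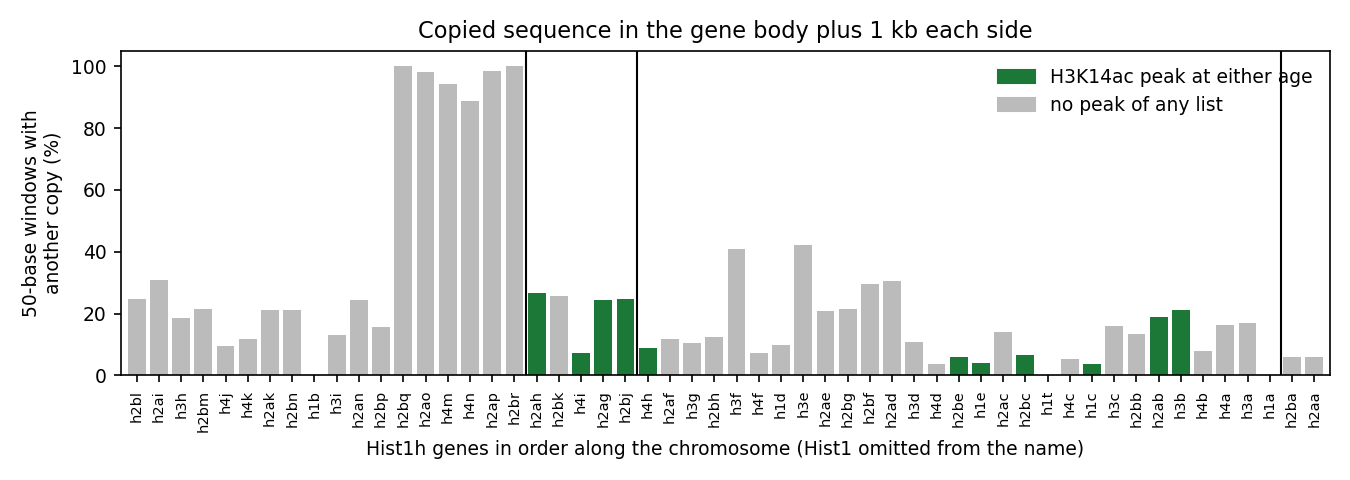
Share of 50-base windows (%) with an exact second copy in the genome, for each Hist1h gene with 1 kb each side, in order along the chromosome with black lines between blocks; green bars are genes with an H3K14ac peak at either age. The 6 bars at or above 88.7% stand together at the end of block 1 and are all grey.

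Promoters of 51 members were matched in the RefSeq table by older symbol and position (Hist1h3f, Hist1h2bc and Hist1h3a were not), giving 52 promoters, since Hist1h2be has 2. CCAAT occurred on either strand within 250 bases before the start site in 84.6% of them, against 33.8% of all 32851 promoters. It was present in every matched H1, H2A, H2B and H3 promoter and in 3 of 11 H4 promoters. TATAAA was present in 50%, against 12.4%. The octamer ATTTGCAT was present in 21.2%, against 1.60%, in 5 of 13 H2A and 6 of 15 H2B promoters and in no other family. AAACACA was present in 17.3%, against 6.25%, and in 5 of 6 H1 promoters. Head-to-head genes share these sequences, so the promoters are not separate cases. By peak, CCAAT was present in 83.3% of promoters of members with a peak and in 85.0% of those without, TATAAA in 41.7% and 52.5%, the octamer in 25% and 20%, and AAACACA in 25% (3 of 12) and 15% (6 of 40).

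Histone genes outside the cluster were read by the same rule. Of 13 other replication-dependent genes, named Hist2h, Hist3h and Hist4h, 0 had a young H3K14ac peak and 1, Hist2h2aa1, had an old one. None had a Setdb1 or Kap1 peak. Young and old shares over all genes were 28.4% and 36.3% for H3K14ac, 36.1% and 14.8% for Setdb1, and 28.4% and 15.8% for Kap1. Among genes under 1 kb they were 4.46% and 5.16%, 3.77% and 0.697%, and 6.83% and 2.51%. With 13 genes, counts of 0 or 1 decide nothing against these last shares. Of 11 variant and replacement histone genes, most of them also expressed outside S phase, 3 had a young and 6 an old H3K14ac peak (27.3% and 54.5%), against 28.4% and 36.3% of all genes. The same numbers of genes had a peak within 1 kb of a start site, where the shares over all genes were 18.3% and 26.6%. The genes with peaks at both ages were H2afx, the damage-response H2A variant, H3f3b, which encodes H3.3, and the linker histone gene H1f0. H2afz, H2afv and H3f3a had old peaks and no young peak. A young Setdb1 peak was at 2 of the 11 (18.2%, against 36.1% of all genes), namely H2afx and H2afy, which had 5. At a start site H2afx alone had one, or 9.09% against 3.91% of all genes. None of the 11 had an old Setdb1 peak or a Kap1 peak at either age.

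Of 15 factors that act on histone genes or their mRNAs, 4 had a young and 6 an old H3K14ac peak (26.7% and 40.0%), near the 28.4% and 36.3% of all genes. Npat, the coactivator of the histone locus body, and Slbp, which binds the mRNA stem-loop, had none. Lsm11, of the U7 snRNP that cuts histone mRNAs, Pou2f1, which binds the octamer, and Ccne1, the cyclin that acts on Npat with Cdk2, had H3K14ac peaks at both ages. Hinfp, which activates H4 genes, had 1 in the old list. Kap1 peaks were present at 6 of the 15 in young and 3 in old liver (40.0% and 20%, against 28.4% and 15.8% of all genes), with 7 young peaks at Ccne1 alone and none of them within 1 kb of its start site.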

How the data were processed

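ChIP-Seq peaks were analysed as 6 deposited lists, 1 per antibody and age. By the methods of the study, the authors used BWA for alignment to the mouse genome (mm10, GRCm38) and Picard to take out duplicate reads. Reads with a unique alignment were retained and pooled over the livers of each age, and PeakSeq called the peaks relative to input DNA. The deposited values are start and end positions in bp, with no height, score or p-value. Read length is not given in the sources used here. The 4 sequential ChIP samples were not used.

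The members and the gene lists were chosen with earlier results of these data known. Positions were read as 0-based starts and every peak lay within its GRCm38 chromosome. Overlap required 1 bp. The overlap code recovered 200 of 200 planted peaks in simulated data, and 21 counts checked against bedtools 2.31.1 showed 0 differences. Peaks were assigned to blocks and stretches by midpoint where the Vmn1r stretch is counted, and by overlap for the totals of the blocks. Copied windows were exact 50-base matches on either strand. Promoters came from the RefSeq table on GRCm38 and motifs were sought on both strands. Shares carry 95% Clopper-Pearson and counts 95% Poisson intervals. Every member with a peak was named, and the positions of those with a peak in a single list were given in addition to the named-gene rule, which asked for members with peaks in at least 2 lists or with Setdb1. Alternatives were the gene body alone, flanks of 5 kb, start sites, 50% of a peak in the window, peaks set to 200 bp, merged loci, the blocks alone, peaks within 1000 bp merged and, added later, members under 1 kb. Python 3.11.15, numpy 2.4.6, scipy 1.17.1, numba 0.67.0 and matplotlib 3.10.9 were used.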

Additional observations from a re-analysis of the deposited data

How the results depend on the processing

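Of 54 recounts under alternative settings, 38 stayed within 1.5 times the reported count and 16 moved further. With flanks of 5 kb, 11 members had a young and 14 an old H3K14ac peak, 4 a young Setdb1 peak and 2 an old Kap1 peak. In the gene body alone 4 members had an old H3K14ac peak. At start sites 0 members had a young Setdb1 peak. With overlapping windows merged to 26 loci, 5 loci had an old H3K14ac peak. Among members under 1 kb, an alternative chosen after seeing the data, 3 had a young and 5 an old H3K14ac peak and 0 a young Setdb1 peak. In the histone blocks alone the cluster counts were 6 young and 11 old H3K14ac peaks, 8 and 1 Setdb1 peaks, and 0 and 1 Kap1 peaks.

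No paired analysis was possible because the livers of an age were merged before peak calling and the lists carry no replicate numbers. No liver was left out for the same reason. The lists hold only regions past the authors' threshold, and depth is unknown, and signal below the threshold does not appear.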

Other observations

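The cluster also holds tRNA genes between the histone genes. Of 77 annotated tRNA genes in it, 4 had a young and 2 an old H3K14ac peak in the gene plus 1 kb each side (5.19% and 2.60%), against 7.85% and 10.3% of 331 tRNA genes elsewhere. The young Setdb1 list had peaks at 2 of them (2.60%) and the old list at 0, against 2.11% and 0.302% elsewhere. For Kap1 these counts were 0 and 3 (3.90%), against 1.51% and 1.21%. The young H3K14ac peaks lay at n-TKttt22, n-TRacg1, n-TIaat7 and n-TTagt1, of which the last 2 shared a peak, and the old ones at n-TVcac11 and n-TMcat9, the latter next to Hist1h4h.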
